A study of Mus musculus with 6 samples.

Results

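The proteasome is the large protease that degrades ubiquitin-tagged proteins in the cytosol and nucleus of every cell. Its barrel-shaped core particle is built of alpha rings, which gate the entrance, and beta rings, which hold the proteolytic sites facing the inside of the barrel. The regulatory particle caps the barrel. Its base unfolds substrates with a ring of ATPases, and its lid removes the ubiquitin chains. Other caps activate the core without ATP, and dedicated chaperones assemble the parts. Most subunits are present in fixed proportions in a complete particle, and in mammals the transcription factor Nfe2l1 raises their genes together when proteasome activity falls short.

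The genes described here are all those with a probe set annotated to a single gene symbol that begins with Psma, Psmb, Psmc, Psmd, Psme, Psmf or Psmg. Psmb8, Psmb9 and Psmb10, which form the immunoproteasome, were left out, and each gene was represented by its probe set with the highest mean signal over the arrays. The rule found 45 of the 12393 genes with such a probe set on the array. Of these, 15 encode the core particle (8 of the alpha ring and 7 of the beta ring), 17 the regulatory particle (6 base ATPases, 3 other base subunits and 8 lid subunits), and 11 activators, an inhibitor or assembly chaperones. The remaining 2, Psmc3ip and Psme3ip1, carry the prefix because their products bind a subunit and are not proteasome subunits themselves. The probe set of the beta subunit of the interferon-inducible activator is annotated to several genes, so that subunit is not a member and is not used here.

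Male mice of the inbred strain DBA/2J, which loses hearing early, supplied cochleae, the hearing organs of the inner ear, at 7 weeks of age (3 samples) or at 36 weeks (3 samples). No treatment or engineered allele is given for either age. Total RNA of each sample was hybridised to 1 single-colour Affymetrix array, and the design compares the old with the young cochlea. The sources used here do not say how many animals went into a sample, so p-values measure the spread between these samples only.

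Values are linear signals in arbitrary units, with array medians between 766.3 and 859.3. The number of arrays limits their precision, and levels of different probe sets are not comparable. A log2 difference is 36 weeks minus 7 weeks of log2(signal + 50), with its standard error (SE) and 3 arrays per age. A gene was called higher or lower where the Benjamini-Hochberg adjusted p from limma, over all 13575 probe sets tested, was under 0.05. The cochlear fibrocyte genes Coch and Otos had mean signals of 82144 and 73912 at 7 weeks and 21556 and 13801 at 36 weeks. The outer hair cell motor gene Slc26a5 had 224.1 to 273.3 at 7 weeks and 299.7 to 372.7 at 36 weeks, and was not tested. Signals of marker genes of several tissues and cell types differed between the ages. The summed signal of 15 granulocyte genes lay between 51573 and 55989 at 7 weeks and between 707275 and 752480.3 at 36 weeks, with 13 of 13 tested called higher. The other 2 were not tested. Itgam had 16.1 to 32.9 at 7 weeks and 1267 to 1731 at 36 weeks, whereas Gfi1 was lower in all 9 pairs, with 492.5 to 918.5 at 7 weeks and 314.1 to 472.4 at 36 weeks. The summed signal of 6 secretory epithelium genes went from 148925 to 161666 up to 528636 to 570544 (6 of 6 higher), and that of 8 brain genes from 38032 to 38898 up to 77499 to 78718 (5 of 6 tested higher). Snap25 of the brain list did not rise, with a mean of 22712 at 7 weeks and 21841 at 36 weeks (log2 difference -0.06, not called). The untested Slc1a2 was higher in all 9 pairs, and the untested Camk2a was dim at both ages, with means of 24.40 and 26.47. The summed signal of 13 skeletal muscle genes went from 371025 to 389529 down to 137937 to 145113 (13 of 13 lower), that of 7 spiral ligament fibrocyte genes from 272958 to 281972 down to 71908 to 74341 (7 of 7 lower), and that of 7 hair cell genes from 31909 to 34379 down to 16312 to 18423 (3 of 5 tested lower). Calb2 made up most of the hair cell sum, with a mean of 26266 at 7 weeks and 11956 at 36 weeks. The median log2 difference of the hair cell genes was -0.08, and the untested Pou4f3 and Slc26a5 were higher in all 9 pairs. No gene of these lists was at 0. The part of these shifts in the values below was not tested, and fewer cells of a type cannot be told apart from less RNA per cell.

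Proteasome genes differed little between the ages. Of 45 members, 43 passed the filter on dim probe sets, 8 were called lower, 3 were called higher and 32 were not called. The 2 members below the filter were Psma8 and Psmc3ip. Among all tested probe sets, 33.6% were called, 17.3% lower and 16.2% higher, so the 18.6% of tested members called lower was near the background and the 6.98% called higher was below it. The median log2 difference was -0.16 over the 45 members, a median change of -10.7%, beside 0.02 over all tested probe sets. The log2 difference was under 0.5 in size for 40 of the 43 tested members (93.0%), against 69.9% of all tested probe sets, and 0 members reached a 2-fold difference, against 8.83%. The signals of the young and old arrays did not overlap, with the old lower in all 9 pairs, for 19 tested members (44.2%, against 23.9% of all tested probe sets), and with the old higher for 4 (9.30%, against 23.4%). Asking for at least 1.2-fold in each of the 9 pairs left Psmc2 and Psmd12 lower and Psme3 higher, where 11.7% of all tested probe sets were lower and 11.6% higher. Leaving out 1 array at a time gave 4 to 6 members lower and 2 or 3 higher, the fewest lower without 7 weeks replicate 2. Calls among all tested probe sets also became fewer in these fits, at 13.5% to 15.1% lower and 13.1% to 14.7% higher.

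**Figure D1:**
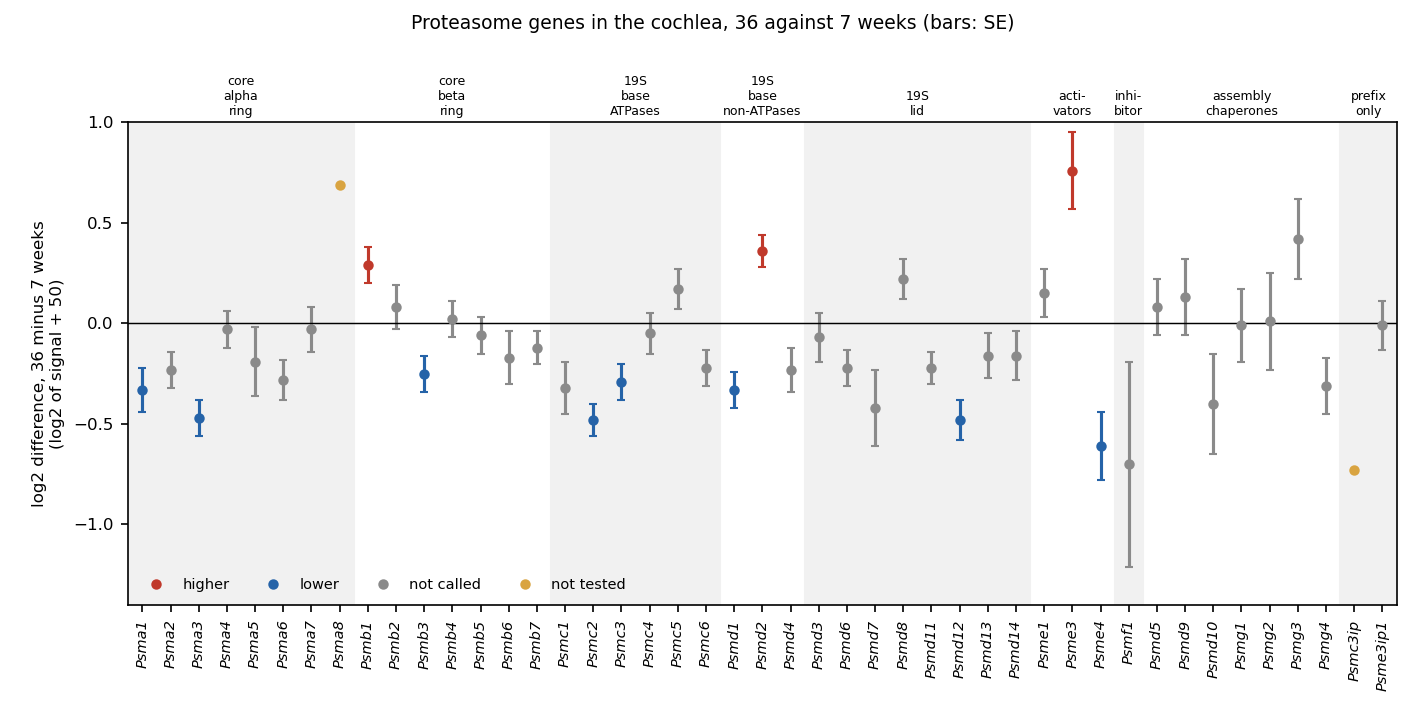
Log2 difference (36 minus 7 weeks, log2 of signal + 50) of the 45 members, ordered by particle, with SE bars (n = 3 arrays per age) and no bar for the 2 members that were not tested. Colours give the call by limma; most points lie between -0.5 and 0.5, with 8 called lower and 3 called higher.

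By particle, the regulatory subunits had the lowest median. Over the 17 regulatory particle genes the median log2 difference was -0.22, with 14 below 0, 4 called lower (23.5%) and 1 called higher (5.88%). Over the 15 core particle genes it was -0.12, with 11 below 0. Of the 14 tested core genes, 3 were called lower (21.4%) and 1 higher (7.14%). Over the 11 activators, inhibitor and chaperones it was 0.01, with 1 called in each direction (9.09%). Among all 13575 tested probe sets, 6627 were below 0, 17.3% were called lower and 16.2% higher. The difference between the particles was not tested. By part, the median was lowest in the ATPases (-0.26), followed by the other base subunits (-0.23), the alpha ring (-0.21), the lid (-0.19) and the beta ring (-0.06). These medians depend on the choice of probe sets and on how the arrays are scaled. With the probe sets of each gene averaged, the regulatory median was -0.14 and the core median -0.12, close to each other. With each array centred on its median, all probe sets shifted from a median of 0.04 to -0.06, the members' median became -0.27, and 16 members were called lower and 1 higher, where 22.5% of all tested probe sets were lower and 12.3% higher. With quantile normalization the median of all probe sets was -0.01, that of the members -0.12 and that of the core -0.01. Then 7 members were lower and 3 higher, where 17.6% of all tested probe sets were lower and 15.2% higher. The share of higher calls among all calls was 35.4% with arrays centred on their median, against 48.3% with the deposited scaling.

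Taken per array, the median of the 6 base ATPases, each gene set against its own 7-week mean, was 0.03, -0.01 and -0.02 at 7 weeks and -0.28, -0.29 and -0.20 at 36 weeks. That of the 8 lid genes was 0.05, 0.00 and -0.04 at 7 weeks and -0.31, -0.15 and -0.14 at 36 weeks. Every old array thus lay below every young array for the ATPases and the lid. For the 7 beta ring genes the values were -0.02, -0.01 and -0.07 at 7 weeks and 0.00, -0.03 and -0.11 at 36 weeks, and the ages overlapped.

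**Figure D2:**
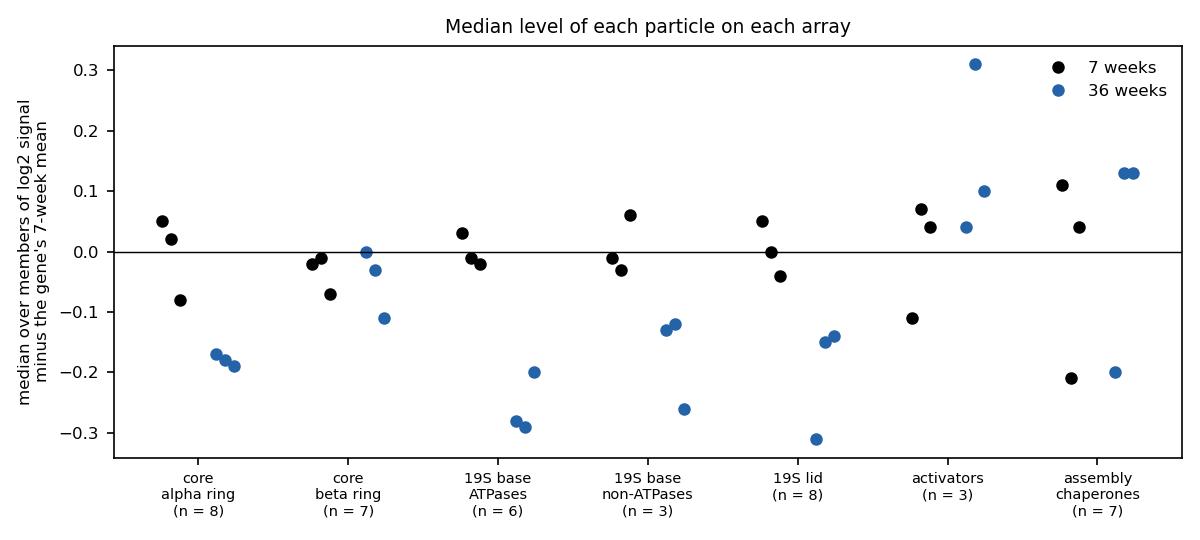
Median over the members of each particle of the log2 signal minus the gene's mean at 7 weeks, on each of the 6 arrays (black, 7 weeks; blue, 36 weeks). The old arrays lie below the young ones for the alpha ring, the base and the lid, and overlap them for the beta ring, the activators and the chaperones.

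The alpha ring, whose subunits close the pore of the core until a cap docks, held 2 called genes, both lower. Psma3 had signals of 7939, 7917 and 7139.8 at 7 weeks and 6152, 5185 and 5257 at 36 weeks. The old arrays were all below the young, a 1.39-fold fall with a log2 difference of -0.47 ± 0.09 (limma adjusted p = 0.00295). Psma1 had 2831, 2656 and 2585 at 7 weeks and 1922, 2301 and 2178 at 36 weeks, again without overlap, a log2 difference of -0.33 ± 0.11 (limma adjusted p = 0.0475). This call at the edge of the threshold was kept in 1 of the 6 fits that left out an array, that without 36 weeks replicate 2, and the adjusted p reached 0.143 in the others. Psma6 and Psma2 also had every old array below every young one but missed the threshold, with log2 differences of -0.28 ± 0.10 and -0.23 ± 0.09 and limma adjusted p of 0.0515 and 0.0802. Without 7 weeks replicate 3, Psma6 passed with an adjusted p of 0.00772 by limma. Psma4 and Psma7 differed by -0.03 each, within the spread of the arrays. Psma5 had 5746, 5623 and 3838 at 7 weeks and 4945, 4704 and 3550 at 36 weeks, so that the third array of each age was low and the ages overlapped. Psma8, the alpha subunit of the testis, was dim on every array, from 53.7 to 378.6, and was not tested.

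The beta ring carries the proteolytic sites. Its 3 catalytic subunits were not called. Psmb5, which cuts after hydrophobic residues, had signals of 6538, 6454 and 5856 at 7 weeks and 6429, 5839 and 5820.4 at 36 weeks. The ages overlapped, and the log2 difference was -0.06 ± 0.09 (limma adjusted p = 0.636). Psmb6, which cuts after acidic residues, had 2269, 2284 and 2831 at 7 weeks and 1925, 2360 and 2271 at 36 weeks, an overlapping pattern with a log2 difference of -0.17 ± 0.13 (limma adjusted p = 0.372). Psmb7, which cuts after basic residues, had 14014, 14176 and 14579 at 7 weeks and 13772, 13946 and 11793 at 36 weeks. All old arrays of Psmb7 were below the young ones, by a log2 difference of -0.12 ± 0.08 that did not pass (limma adjusted p = 0.282).

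Among the beta subunits without an active site, 1 rose and 1 fell. Psmb1 had 5054, 6208 and 5128 at 7 weeks and 6610.4, 6718 and 6621 at 36 weeks, all old arrays above the young ones. Its log2 difference was 0.29 ± 0.09 (limma adjusted p = 0.0387), which became 0.19 and was not called with arrays centred on their median. It kept the call in 1 of the 6 fits that left out an array, that without 7 weeks replicate 2, with an adjusted p of up to 0.122 in the others. Psmb3 had 5488, 5953 and 5299 at 7 weeks and 4859, 4647 and 4532 at 36 weeks, without overlap, a log2 difference of -0.25 ± 0.09 (limma adjusted p = 0.0452). That call was kept without 7 weeks replicate 3 only, with an adjusted p of up to 0.142 otherwise. The next brightest probe sets of both genes were not called. That of Psmb1 had a log2 difference of -0.06 (limma adjusted p = 0.769), and that of Psmb3 had mean signals of 3229.8 at 7 weeks and 3215 at 36 weeks (limma adjusted p = 0.992). With the probe sets of each gene averaged, neither call held, at 0.24 for Psmb1 (limma adjusted p = 0.148) and -0.13 for Psmb3 (0.333). Psmb2 and Psmb4 differed by 0.08 and 0.02 and were not called.

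The ATPase ring of the base threads unfolded substrates into the core. Psmc2 had the smallest adjusted p of all members. Its signals were 8378, 8482 and 8961 at 7 weeks and 6574, 5616 and 6333 at 36 weeks, a 1.39-fold fall with a log2 difference of -0.48 ± 0.08 (limma adjusted p = 0.00144) and no overlap. This probe set is of a kind that can bind related transcripts. A dimmer probe set of Psmc2 fell further, from 5063, 5644 and 5290.5 to 3356, 3054 and 3031, by a log2 difference of -0.75 ± 0.09 (limma adjusted p = 1.28e-04). Psmc3 had 5298, 5391 and 4789 at 7 weeks and 4201, 4255 and 4149 at 36 weeks, all old arrays lower, with a log2 difference of -0.29 ± 0.09 (limma adjusted p = 0.0255). It kept the call in 1 of 6 fits with an array left out, that without 7 weeks replicate 3, and its adjusted p was at most 0.0826. Psmc1 and Psmc6 had every old array below every young one without passing (log2 differences of -0.32 and -0.22), Psmc4 differed by -0.05, and Psmc5 was the only ATPase with a difference above 0, at 0.17 ± 0.10.

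The large scaffold subunits of the base went in opposite directions. Psmd1 had 5072, 4831 and 5466 at 7 weeks and 3734, 4204 and 4271 at 36 weeks, a log2 difference of -0.33 ± 0.09 without overlap (limma adjusted p = 0.0213). Its call was lost without 7 weeks replicate 3 and without 36 weeks replicate 1, where the adjusted p reached 0.0737. Psmd2 had 5274, 5819 and 5876 at 7 weeks and 6767, 7478 and 7501 at 36 weeks, all old arrays higher, a 1.28-fold rise with a log2 difference of 0.36 ± 0.08 (limma adjusted p = 0.00853). With arrays centred on their median the rise of Psmd2 was 0.25 and its adjusted p was 0.0557. Psmd4, the ubiquitin receptor beside them, had a log2 difference of -0.23 ± 0.11 and was not called.

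The lid removes ubiquitin chains before a substrate enters. Psmd12, a structural lid subunit, had signals of 4000.3, 3713 and 3428 at 7 weeks and 2727, 2704 and 2529.5 at 36 weeks. All old arrays were lower, a 1.40-fold fall with a log2 difference of -0.48 ± 0.10 (limma adjusted p = 0.00480). The deubiquitinase Psmd14 differed by -0.16 ± 0.12 with overlapping arrays. Psmd6, Psmd11 and Psmd13 had every old array below every young one, at -0.22, -0.22 and -0.16 on the log2 scale, without passing the test. Psmd7 (-0.42 ± 0.19) and Psmd3 (-0.07 ± 0.12) overlapped between the ages. Psmd8 was the only lid gene with a difference above 0, at 0.22 ± 0.10, with all 9 pairs higher and a limma adjusted p of 0.135.

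Of the caps that open the core without ATP, 1 rose and 1 fell. Psme3, the nuclear activator subunit PA28-gamma, had signals of 573.5, 618.5 and 628.2 at 7 weeks and 958.7, 1135 and 1108 at 36 weeks. All old arrays were above the young ones, a 1.76-fold rise with a log2 difference of 0.76 ± 0.19 (limma adjusted p = 0.0100). The other probe sets of Psme3 did not show this rise. The next brightest had 825.7, 626.4 and 860.0 at 7 weeks and 1196, 569.5 and 841.9 at 36 weeks, a log2 difference of 0.12 ± 0.27, and with the probe sets of each gene averaged the difference of Psme3 was 0.11. Psme4, the large single-chain activator that serves chromatin and DNA repair, had 2100.2, 2490.0 and 2259 at 7 weeks and 1566, 1125 and 1826 at 36 weeks, all old arrays lower. Its log2 difference was -0.61 ± 0.17 (limma adjusted p = 0.0207), and a dimmer probe set fell by 0.52 ± 0.15 (limma adjusted p = 0.0221). The third probe set of Psme4 had -0.23 ± 0.17 with overlapping arrays and was not called (limma adjusted p = 0.341). The call of the brightest Psme4 probe set was lost without 7 weeks replicate 2, without 7 weeks replicate 3 or without 36 weeks replicate 2, with an adjusted p of up to 0.0765. Psme1, the interferon-inducible activator subunit PA28-alpha, had a difference of 0.15 ± 0.12 and was not called.

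**Figure D3:**
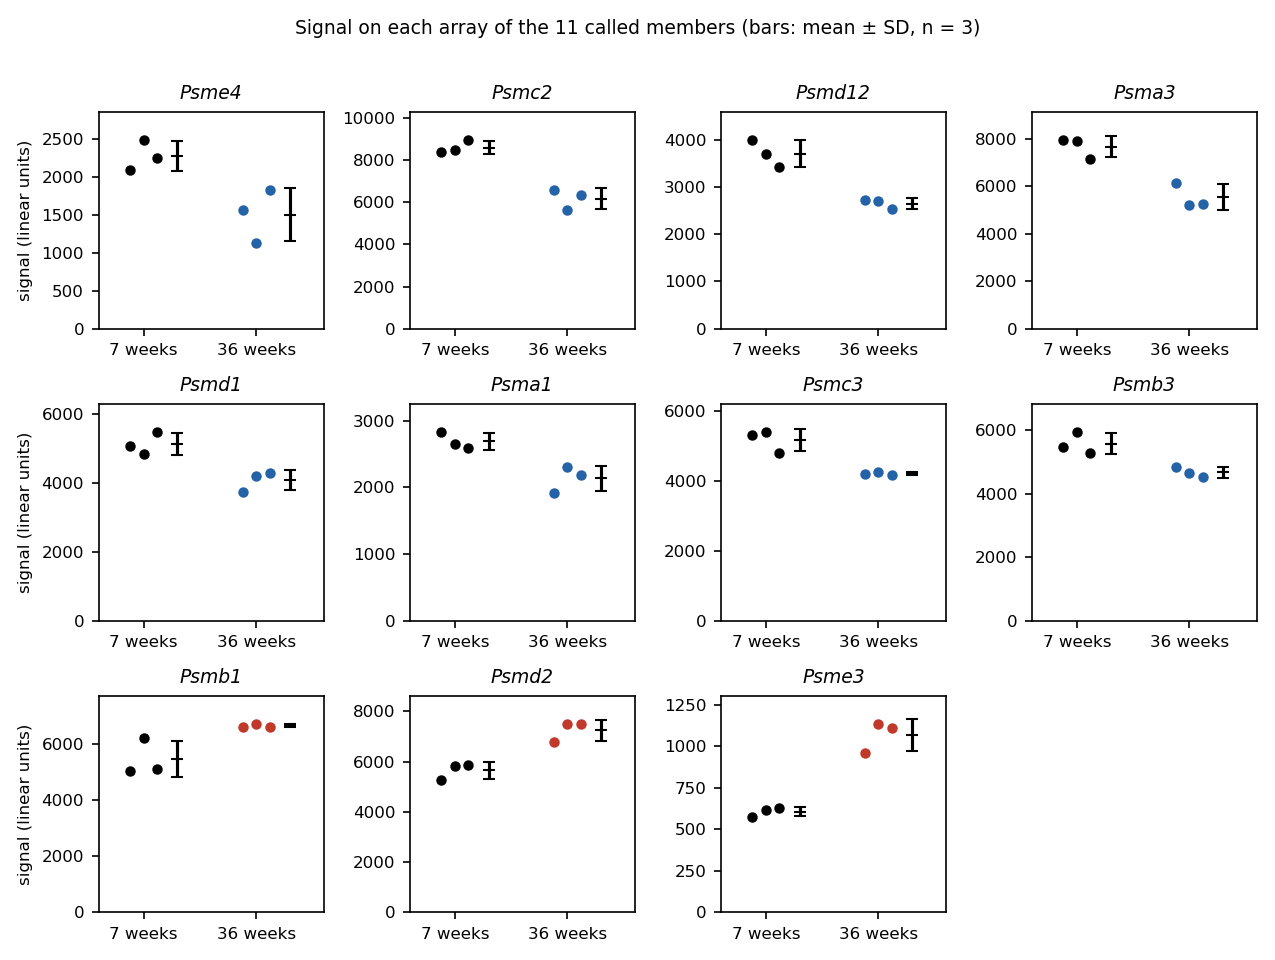
Signal (linear units, axes from 0) on each of the 6 arrays for the 11 called members, with mean ± SD per age beside the points (n = 3). The old arrays lie below all young arrays for 8 genes (blue) and above them for Psmb1, Psmd2 and Psme3 (red).

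Psmf1, the core inhibitor PI31, had the widest spread of the members. Its signals were 2043, 1230.1 and 1288 at 7 weeks and 2388, 343.9 and 817.9 at 36 weeks, which overlapped, and the log2 difference of -0.70 ± 0.51 was not called. Without 36 weeks replicate 1, its highest old array, Psmf1 had a difference of -1.39 and a limma adjusted p of 0.0145. The next brightest probe set of Psmf1 had every old array below every young one. Its difference of -0.23 was not called (limma adjusted p = 0.343). The dimmest ones, with differences of -0.58 and -0.87, were not tested. Of the 7 assembly chaperones 0 were called by limma, against 33.6% of all tested probe sets. Psmg1 and Psmg2, which join to start the alpha ring, differed by -0.01 and 0.01. Psmg3, the partner of Psmg4 in ring assembly, had a difference of 0.42 ± 0.20 and Psmg4 one of -0.31 ± 0.14, the latter with every old array below every young one. Without 7 weeks replicate 1, Psmg3 had a difference of 0.60 and a limma adjusted p of 0.0454. Psmd5, Psmd9 and Psmd10, chaperones of the base, had differences of 0.08, 0.13 and -0.40, the last with every old array below every young one. That pattern was seen in 28.6% of the 7 chaperones and in 23.9% of all tested probe sets. Of the genes with the prefix alone, Psme3ip1 differed by -0.01, and Psmc3ip, a partner of meiotic recombinases, was dim (215.5 to 784.2) and not tested.

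Several members had more than 1 probe set, and these did not always give the same answer. The 21 such genes had 37 further probe sets, of which 21 were tested, 7 were called lower and 0 higher by limma. Of all tested probe sets, 17.3% were called lower and 16.2% higher. In 2 genes, Psmc2 and Psme4, the further call matched that of the brightest probe set. In the other 5, the brightest probe set was not called. Psma7 had a further probe set with 3898, 3890.4 and 3221 at 7 weeks and 2594, 2472 and 2308 at 36 weeks, a log2 difference of -0.56 beside -0.03. That of Psmb4, of a kind that can bind related transcripts, had a difference of -0.64 beside 0.02, and that of Psmc4, dim at 36 weeks (229.8 to 756.4), had -1.30 beside -0.05. Psma5 had a further probe set with a difference of -0.39 beside -0.19, and Psma6 one with -0.30 beside -0.28. Counting a member as called if any of its probe sets was, a count chosen after the values were seen, 13 of the 43 tested members were lower (30.2%) and 3 higher (6.98%). By the same count, 20.1% of all 8541 genes with a tested probe set of a single symbol were lower and 19.8% higher.

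**Figure D4:**
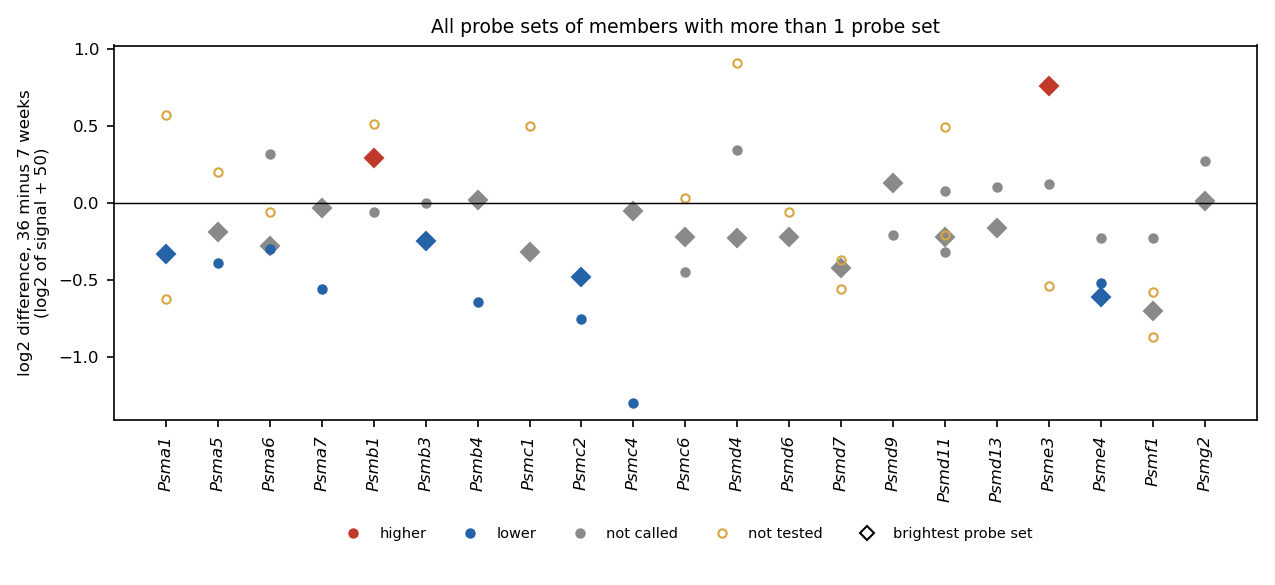
Log2 difference (36 minus 7 weeks) of every probe set of the 21 members with more than 1. Diamonds are the brightest probe set of each gene and circles the others; the 7 circles called lower include those of Psma7, Psmb4 and Psmc4, whose diamonds lie near 0.

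The sequences just before the start sites of the 5 members that kept their call with each array left out in turn are printed here, since these are the changes that 1 array did not decide. They are RefSeq promoters of build GRCm38.p6, where 37 of the 45 members had an entry. Each runs over the 150 bases before the start, on the plus strand, and Psmc2 has 2 starts. They lie at chr12:70974473-70974622 (Psma3), chr5:21785125-21785274 and chr5:21786597-21786746 (Psmc2), chr11:107479378-107479527 (Psmd12), chr16:20651502-20651651 (Psmd2) and chr11:101316063-101316212 (Psme3). Capitals mark GGAAG or its reverse complement CTTCC, the core that ETS factors bind, and CCAAT or its reverse complement ATTGG, the box of NF-Y. In Psma3 both matches overlap.
Psma3: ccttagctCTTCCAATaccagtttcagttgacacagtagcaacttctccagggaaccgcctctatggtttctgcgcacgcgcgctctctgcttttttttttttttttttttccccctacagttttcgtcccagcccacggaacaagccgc
Psmc2, start 1: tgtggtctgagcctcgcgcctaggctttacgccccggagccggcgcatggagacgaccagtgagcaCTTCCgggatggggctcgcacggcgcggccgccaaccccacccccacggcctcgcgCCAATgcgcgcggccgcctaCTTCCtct
Psmc2, start 2: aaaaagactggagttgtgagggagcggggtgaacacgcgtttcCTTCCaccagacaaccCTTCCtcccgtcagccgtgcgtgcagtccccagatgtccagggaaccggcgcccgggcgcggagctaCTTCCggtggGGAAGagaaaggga
Psmd12: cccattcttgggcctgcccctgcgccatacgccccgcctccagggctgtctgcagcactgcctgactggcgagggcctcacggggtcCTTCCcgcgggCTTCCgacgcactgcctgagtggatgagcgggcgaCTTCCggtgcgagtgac
Psmd2: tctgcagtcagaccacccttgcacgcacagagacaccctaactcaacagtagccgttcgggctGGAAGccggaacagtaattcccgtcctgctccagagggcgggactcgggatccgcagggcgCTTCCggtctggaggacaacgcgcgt
Psme3: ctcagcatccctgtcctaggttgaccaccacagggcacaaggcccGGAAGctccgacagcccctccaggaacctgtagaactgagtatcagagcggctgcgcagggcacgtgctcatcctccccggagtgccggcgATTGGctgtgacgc

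The ETS core was present in all of these windows, those of genes that fell and those of genes that rose. Over the 250 bases before each start, 34 of the 40 member promoters (85.0%) held GGAAG on either strand, against 65.1% of 21263 promoters of protein-coding genes. CCAAT was found in 35.0% of member promoters against 35.4%, and TATAAA in 3 of 40 (7.50%) against 11.6%. A match is a description of the letters and not a measured site.

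Genes that control proteasome genes were called in both directions. Nfe2l1 had signals of 6642, 7782 and 5493 at 7 weeks and 7237, 7652 and 7090.1 at 36 weeks, which overlapped (log2 difference 0.15 ± 0.12, limma adjusted p = 0.338). Its relative Nfe2l2, the regulator of antioxidant genes, fell from 3252, 3079 and 3071 to 2701, 2197 and 2358, all old arrays lower, by a log2 difference of -0.37 ± 0.11 (limma adjusted p = 0.0260). Keap1, the adaptor that sends Nfe2l2 for degradation, fell by 0.30 ± 0.10, although its dimmer probe set had a difference of 0.51 that did not pass. Of the 9 tested genes of this list, 2 were called lower and 2 higher, beside 17.3% lower and 16.2% higher among all tested probe sets. The higher ones were Stat3, a cytokine-signalling factor (0.64 ± 0.11), and Foxo4, a forkhead factor (1.04 ± 0.32, dim at 7 weeks). Nfe2l1 and Nfe2l2 bind the antioxidant response element, searched here as TGACNNNGC or its reverse complement GCNNNGTCA.

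That element was found in the promoters of 5 members, of which 1, Psmd12, was called. Of all tested members 25.6% were called, and of all tested probe sets 33.6%. The element was present in 12.5% of member promoters against 10.4% of those of protein-coding genes. Windows of 100 bases around it are shown, with the match in capitals, since they include the catalytic subunits Psmb5 and Psmb6, whose values did not pass the test. They lie at chr14:54617996-54618095 on the minus strand (Psmb5), and on the plus strand at chr11:70525257-70525356 (Psmb6), chr14:45329574-45329673 (Psmc6), chr11:107479278-107479377 (Psmd12) and chr5:123228090-123228189 (Psmd9).
Psmb5: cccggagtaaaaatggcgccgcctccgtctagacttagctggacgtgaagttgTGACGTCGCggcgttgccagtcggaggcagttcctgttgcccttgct
Psmb6: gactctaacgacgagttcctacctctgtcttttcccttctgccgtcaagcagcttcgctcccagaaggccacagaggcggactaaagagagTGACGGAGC
Psmc6: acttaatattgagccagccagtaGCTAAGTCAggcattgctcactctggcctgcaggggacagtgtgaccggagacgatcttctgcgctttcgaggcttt
Psmd12: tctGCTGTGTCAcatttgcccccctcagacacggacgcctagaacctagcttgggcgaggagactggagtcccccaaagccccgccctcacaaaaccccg
Psmd9: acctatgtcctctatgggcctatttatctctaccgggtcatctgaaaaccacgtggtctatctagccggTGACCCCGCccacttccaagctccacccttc
The element began 47 bases before the start of Psmb5 and 9 bases before that of Psmb6, and further upstream in Psmc6 (227 bases) and Psmd12 (247 bases).

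Of the 3 inducible subunits that replace the catalytic ones in immune cells, 1 was called higher and 0 lower by limma. The share among all tested probe sets was 16.2% higher and 17.3% lower. Psmb9, the counterpart of Psmb6, had signals of 618.3, 646.7 and 414.9 at 7 weeks and 1245, 1095 and 1006 at 36 weeks, a 1.99-fold rise without overlap (log2 difference 0.95 ± 0.22, limma adjusted p = 0.00777). Psmb8, the counterpart of Psmb5, had 965.9, 1023 and 866.8 at 7 weeks and 1251, 1226 and 1345 at 36 weeks. Every old array was higher, but the difference of 0.40 ± 0.16 did not pass (limma adjusted p = 0.0711). Psmb10, the counterpart of Psmb7, overlapped between the ages with a difference of -0.08 ± 0.17. The constitutive Psmb6, Psmb5 and Psmb7 had -0.17, -0.06 and -0.12 on the same arrays, and the differences between counterparts were not tested. The 13 tested granulocyte genes were called higher on the same arrays, with Gfi1 of that list lower and not tested, and their part in this was not tested.

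Among proteins that work with the proteasome, 3 of 10 tested genes were called lower and 1 higher. Of all tested probe sets, 17.3% were lower and 16.2% higher. Usp14, a deubiquitinase that docks on Psmd2, had 3316, 3773 and 5442 at 7 weeks and 7504, 8218 and 7476 at 36 weeks, a 1.85-fold rise (log2 difference 0.91 ± 0.15, limma adjusted p = 0.00109). That probe set can bind related transcripts, and the other 2 of Usp14 had differences of 0.05 and -0.13 and were not called. Zfand5, a zinc finger protein that stimulates the proteasome, fell by 0.39 ± 0.08, beside a difference of -0.01 in its next brightest probe set. Txnl1, a thioredoxin-like protein bound to the lid, fell by 0.48 ± 0.14, and a dimmer probe set fell by 0.58. Ubqln2, a shuttle for ubiquitinated proteins, fell by 0.44 ± 0.15 with overlapping arrays and an adjusted p of 0.0497 by limma. Pomp, which matures the core, and Sem1, the smallest lid subunit, had differences of -0.06 and 0.12 and were not called. Of the 6 genes of the Vcp segregase, which extracts substrates for the proteasome, 0 were called by limma, and Vcp itself had a difference of 0.05 ± 0.07. The ubiquitin genes and the ubiquitin-activating enzymes had no probe set with a single matching symbol and are not analysed here.

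**Figure D5:**
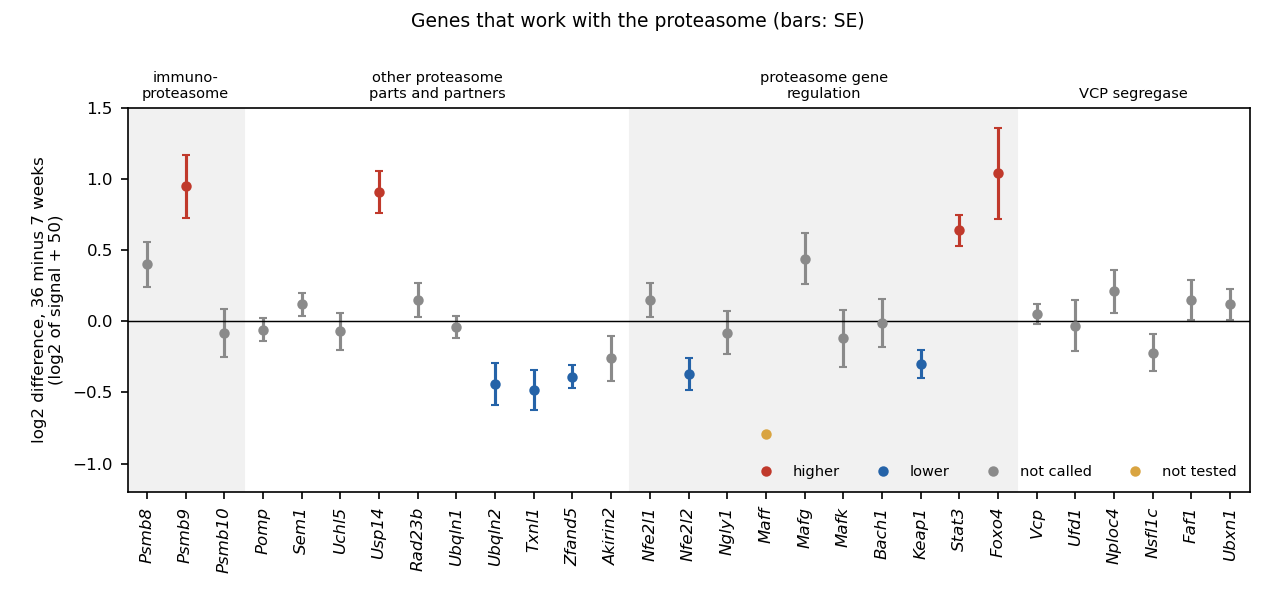
Log2 difference (36 minus 7 weeks, log2 of signal + 50) with SE bars of the immunoproteasome subunits, other proteasome partners, regulators of proteasome genes and the Vcp segregase, n = 3 arrays per age. Psmb9, Usp14, Stat3 and Foxo4 lie above 0 and are called higher; 5 genes are called lower and the rest lie mostly near 0.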

How the data were processed

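The deposited table holds 1-colour intensity values, linear probe set signals of Affymetrix arrays prepared from biotin-labelled cRNA per the labels' protocols. The program for summarising probes is not given here. Trimmed means of 1490.2 to 1493.0 on the 6 arrays show that their levels were equalised before deposit. Of 22626 probe sets, 20380 had 1 gene symbol in the platform annotation. With R 4.3.3 and limma 3.58.1, log2(signal + 50) was fitted without pairing for the 13575 probe sets whose mean log2 value was above the 40th percentile (lmFit, eBayes with intensity trend, two-sided, Benjamini-Hochberg over all of them, threshold 0.05). The test was checked on simulated data. The offset understates changes of dim genes. Members below the filter were not tested. Lists are described by counts and medians with no test. The members and lists were chosen with earlier results of these data known. Every member may be named, with signals on every array for the 3 catalytic subunits and for called members of each particle (at most 3 per direction); of the other lists, the called genes and the immunoproteasome subunits are named. Other genes and probe sets were singled out after their values were seen. Promoters came from RefSeq, and motifs were searched on both strands of the 250 bases before each start.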

Additional observations from a re-analysis of the deposited data

How the results depend on the processing

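Alternatives were an offset of 1 or 16, quantile normalization, centring on array medians, no filter or one at the 60th percentile, eBayes without the trend, a replicate block, each array left out, probe sets averaged per gene, the 1.2-fold rule over 9 pairs, and leaving out Psmc3ip or probe sets that can bind related transcripts. Of 806 values of single members under these, 716 did not change sign and stayed called or not called. Untested values counted as not called. Another 50 kept the direction but lost the call, some because they were no longer tested, 16 gained the call and 24 changed sign. Leaving out Psmc3ip or the probe sets that can bind related transcripts reused the same fit, so the remaining members could not change. The filters, the trend, the block and the 1.2-fold rule could change a call but not a direction. The sign changes were in 12 members, 0 of them called by limma as deposited, and 1 was called under the alternative, Psmb4, at -0.31 with probe sets averaged. Averaging also gave 0.09 for Psmc1, 0.34 for Psmd4 and -0.04 for Psmd9. Quantile normalization gave 0.01 for Psma4 and -0.09 for Psmg2, and centring on array medians gave -0.02 for Psmb2 and Psmd5 and -0.09 for Psmb4 and Psmg2. Leaving out each array moved 10 members across 0: Psma4 (-0.08 to 0.02), Psma7 (-0.12 to 0.04), Psmb2 (-0.02 to 0.18), Psmb4 (-0.03 to 0.07), Psmd3 (-0.13 to 0.05), Psmd5 (-0.01 to 0.23), Psmd9 (-0.02 to 0.27), Psme3ip1 (-0.08 to 0.09), Psmg1 (-0.13 to 0.10) and Psmg2 (-0.23 to 0.20). Quantile normalization gave medians of -0.12 (all members), -0.01 (core) and -0.08 (activators, inhibitor and chaperones). Centring on array medians gave 1 member higher and 16 lower, and medians of -0.27 (all), -0.22 (core), -0.32 (regulatory) and -0.09 (the others). Of all tested probe sets, 12.3% were then higher and 22.5% lower. Without the trend 4 members were lower, where 15.0% of all tested probe sets were lower. Averaged probe sets gave 1 higher, where 17.7% of all tested genes were higher, and medians of -0.12 (all), -0.12 (core) and -0.14 (regulatory). The 1.2-fold rule gave 1 higher and 2 lower, where 11.6% of all tested probe sets were higher and 11.7% lower. Counting any probe set, added after seeing the data, gave 13 lower, where 20.1% of all genes with a tested probe set were lower. Leaving out each array gave 4 to 6 lower, where 13.5% to 15.1% of all tested probe sets were lower. The medians then ran from -0.20 to -0.12 (all), -0.16 to -0.06 (core) and -0.03 to 0.10 (the others). The cause of these shifts was not tested. The replicate block gave 3 higher and 7 lower, where 15.3% of all tested probe sets were higher and 16.4% lower. Under it Psma1 and Psmb3 lost the call (limma adjusted p = 0.0764 and 0.0636) and Psma6 gained it (0.0460). Arrays sharing a number did not deviate together (correlations of 0.048, -0.014 and -0.003), and not every array correlated best with its own number. Dim signals limit Psma8 and Psmc3ip, which were not tested.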
